A study of Mus musculus with 9 samples.

Results

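Barx1, Lhx8, Cart1 and Dlx6 are 4 homeobox genes that pattern the facial primordia, and 1 probe for each was read on every array. They were chosen by their symbols in the gene table of the study, which gives 302 gene names to 306 of its 347 probes, out of 23473 probes on the array. That table names 38 homeobox genes in all, 15 of them Hox genes. It was drawn up by the study from probes that differed among the 4 groups of cells on these same arrays, Tp replicate 3 being the only array not used for it, so the tests below are not independent evidence that these genes differ. The 4 genes lie on different chromosomes, Barx1 on 13, Lhx8 on 3, Alx1 on 10 and Dlx6 on 6. Cart1 is the older symbol of Alx1. The RefSeq gene table lists Cart1 as a name of 2 genes, Alx1 and Rab11fip3, and the probe was taken as Alx1, the homeobox gene, without its own sequence having been used here.

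The RNA came from mouse embryos at E12.5 of the P0-Cre/Floxed-EGFP cross, in which Cre under the myelin protein zero (P0) promoter switches on EGFP in neural crest cells (NCCs) and their descendants. Craniofacial and trunk regions were dissected apart, the heart fields were taken off the trunk, and the dissociated cells were sorted by EGFP. The 9 arrays are 3D-Gene arrays with 1 colour (Cy5) and fall into 4 groups. Cp is the EGFP+ fraction of the craniofacial region, with 2 arrays, and Tp that of the trunk, with 3. Cn is the EGFP- fraction of the craniofacial region and Tn that of the trunk, with 2 arrays each. All 4 groups carried both transgenes on a mixed C57/BL6J and ICR background, were of the same age, and no treatment is given for any of them. Cn and Tn were therefore the remaining cells of the same regions, whatever their type. The study itself allows that EGFP+ cells can be a mixture, and P0-Cre is known to label a little of the notochord. The text of the study calls its samples biological duplicates without saying whether they came from separate litters, so the p-values below speak only to the spread from array to array, which may be technical.

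Levels are the processed intensities that the authors deposited, on a linear scale with a median of 25 on every array, and fold changes are differences of their log2 values. These intensities follow the spot reading minus the mean of the blank spots, times a factor for each array. The median spot was 1.81 to 3.21 times the blank mean, lowest on Tp replicate 3, and 79.96% to 90.2% of probes lay above the blank mean plus 2 SD, called the blank limit below. All 36 readings of the 4 genes on the 9 arrays lay above it. Beside the deposited values, the scanner's spot readings were fitted after normexp correction with an offset of 50 and quantile normalization, once against the blank mean, called the offset readings below, and once against the ring around each spot. The offset readings thus kept the background of the deposited values and differed from them in the other steps. The scanner files carry 4 dates, and the arrays of 1 date are called a scan below. Scan 1 held replicate 1 of every group, scan 2 held replicate 2 of Cp and Cn, scan 3 held replicate 2 of Tp and Tn, and scan 4 held Tp replicate 3. Detector gain could differ within a date. In scan 1 it was 36 for Cn and Tn and 37 for Cp and Tp. In scan 2 it was 31 for Cn and 32 for Cp, and in scan 3 it was 36 for Tp and Tn. All 4 genes belong to the 21965 probes tested.

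Homeobox genes encode transcription factors that give embryonic cells their regional identity. In the trunk that identity is written largely by Hox genes, whereas the crest cells that enter the first branchial arch and the frontonasal region carry little Hox expression and rely on other homeobox classes for the form of jaws, teeth, palate and nose. Barx1, of the Bar class, marks the mesenchyme of the arches where molars will form. Lhx8, a LIM-homeobox gene, acts in the palate and oral mesenchyme and also in the cholinergic neurons of the basal forebrain. Alx1, of the aristaless-like class, acts in frontonasal mesenchyme and early cartilage, and Dlx6, a distal-less gene paired on its chromosome with Dlx5, gives the lower jaw its identity and is also active in forebrain interneurons.

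The stretches of 250 bases just upstream of the annotated starts of Barx1 and Lhx8 are shown because no such sequence was available for the other genes. The 2 stretches are very unlike in sequence, and no link to the levels on the arrays was tested. They are taken from RefSeq (GRCm38.p6), where 2 of the 4 genes were matched, and are printed 5′ to 3′ on the strand of the gene with each CpG in capitals. The Barx1 stretch lies at chr13:48662786-48663035 on the plus strand, and the Lhx8 stretch at chr3:154330561-154330810 on the minus strand.
Barx1: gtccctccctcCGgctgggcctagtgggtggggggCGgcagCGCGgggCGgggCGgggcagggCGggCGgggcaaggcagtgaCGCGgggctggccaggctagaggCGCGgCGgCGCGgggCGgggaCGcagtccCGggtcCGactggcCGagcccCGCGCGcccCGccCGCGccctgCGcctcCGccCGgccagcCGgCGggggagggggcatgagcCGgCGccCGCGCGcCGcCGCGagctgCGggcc
Lhx8: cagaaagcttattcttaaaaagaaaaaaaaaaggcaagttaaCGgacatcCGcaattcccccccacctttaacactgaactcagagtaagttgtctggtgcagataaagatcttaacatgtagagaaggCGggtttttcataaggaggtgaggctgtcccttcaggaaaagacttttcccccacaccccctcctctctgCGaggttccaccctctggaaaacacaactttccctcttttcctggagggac
The Barx1 stretch held 40 CpG at a GC content of 85.6%, and 98.7% of the 32851 mouse promoters of this length held fewer CpG. The Lhx8 stretch held 4 CpG at a GC content of 46.0%, near the median promoter with 6 CpG. The homeodomain core TAAT, searched on both strands and so also as ATTA, was not in either stretch, whereas 54.9% of all promoters held it. Its absence says only that these letters are not in these windows.

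Barx1 was brightest in Cp. Its intensity was 451 and 322 on the 2 Cp arrays, against 36.1, 39.7 and 29.0 on the 3 Tp arrays. In EGFP- cells it was 136 and 115 on the Cn arrays, against 27.1 and 27.9 on the Tn arrays. Both craniofacial groups thus lay clear of both trunk groups on every array, with Cp above Cn and the trunk arrays close together. Barx1 was 11.0-fold higher in Cp than in Tp (log2 fold change 3.46, SE 0.26, adjusted p = 1.03e-05 in limma), which is a difference in RNA per unit of labelled RNA and cannot tell more Barx1 cells from more Barx1 RNA per cell. In Cn it was 4.55-fold higher than in Tn (2.18, SE 0.28, adjusted p = 0.0018). Cp exceeded Cn 3.05-fold (1.61, SE 0.28, adjusted p = 0.0051), a call that ended without Cp replicate 1 (1.36, adjusted p = 0.071). Between Tp and Tn the log2 difference was 0.33, with a 95% interval of -0.23 to 0.90 (adjusted p = 0.68), so the 2 lowest groups in the order Cp, Cn, Tp, Tn were not separated by the test.

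Lhx8 had the same order of groups with a wider gap between regions. Its intensity was 397 and 295 in Cp, against 11.0, 12.4 and 9.39 in Tp. The Cn arrays gave 178 and 180, against 6.26 and 10.4 on the Tn arrays. The 4 craniofacial arrays stood far above the 5 trunk arrays, and Tp and Tn overlapped. Cp exceeded Tp 31.5-fold (log2 fold change 4.98, SE 0.28, adjusted p = 2.15e-06), and Cn exceeded Tn 22.2-fold (4.47, SE 0.31, adjusted p = 1.17e-05). The trunk spots of Lhx8 were dim, at 1.29 to 1.92 times the blank limit in Tp and at 1.27 and 1.70 in Tn. In the offset readings the 2 folds were 7.77 and 5.18. Both Cp arrays were brighter than both Cn arrays, as for 29.1% of all probes tested. The difference between Cp and Cn did not pass the test (0.93, 95% interval 0.26 to 1.61, adjusted p = 0.125). It did pass in the offset readings (0.73, adjusted p = 0.002). Tp and Tn differed by 0.43, with an interval of -0.19 to 1.05 (adjusted p = 0.589).

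Cart1 was the only gene of the 4 for which all 4 comparisons passed. Its intensity was 134 and 132 in Cp, against 4.17, 4.24 and 3.94 in Tp. In EGFP- cells it was 35.3 and 41.3 in Cn, against 9.52 and 8.71 in Tn. No 2 of the 4 groups overlapped, which was also so for Barx1 and Dlx6. Over all probes tested, 18.0% lay higher in Cp than in Tp without overlap and 29.1% higher in Cp than in Cn. For Cn over Tn it was 9.82%, and 19.4% lay lower in Tp than in Tn. The order for Cart1 was Cp, Cn, Tn, Tp, with the trunk EGFP+ cells at the bottom. Cp exceeded Tp 32.4-fold (log2 fold change 5.02, SE 0.22, adjusted p = 4.15e-07), and Cn exceeded Tn 4.19-fold (2.07, SE 0.24, adjusted p = 0.00095). The Tp spots behind the first fold lay near the blank limit, as given below, and that fold was 4.03 in the offset readings. The part of these dim spots in its size was not tested. Cp also exceeded Cn, 3.49-fold (1.80, SE 0.24, adjusted p = 0.000932). In the trunk the sign turned, with Tp below Tn by 1.15 on the log2 scale (SE 0.22, adjusted p = 0.00789). The spots behind this last call were dim. The Tp spots of Cart1 read only 1.06 to 1.2 times the blank limit and the Tn spots 1.59 times, and the difference was -0.13 in the offset readings (adjusted p = 0.433), where an offset of 50 was added to signals this low. It also lost the threshold without Tn replicate 1 (-1.08, adjusted p = 0.0761).

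Dlx6 differed between the regions, and neither comparison of EGFP+ with EGFP- cells passed. Its intensity was 60.1 and 58.1 in Cp, against 17.6, 21.0 and 22.9 in Tp. The Cn arrays gave 71.7 and 74.5, against 10.9 and 16 on the Tn arrays. The craniofacial arrays were again above every trunk array, and here Cn was the brighter of the craniofacial groups by a narrow margin. Cp exceeded Tp 2.90-fold (log2 fold change 1.54, SE 0.25, adjusted p = 0.00223), the smallest of the 4 regional differences in EGFP+ cells. Cn exceeded Tn 5.53-fold (2.47, SE 0.28, adjusted p = 0.000632). Cp minus Cn was -0.31 with an interval of -0.91 to 0.30 (adjusted p = 0.707), and Tp minus Tn was 0.62 with an interval of 0.07 to 1.18 (adjusted p = 0.232), so that in the order Cn, Cp, Tp, Tn the test separated the regions but not the groups within a region. With the ring as background neither regional difference passed, at 0.30 for Cp over Tp (adjusted p = 0.824) and 0.30 for Cn over Tn (adjusted p = 0.615).

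**Figure D1:**
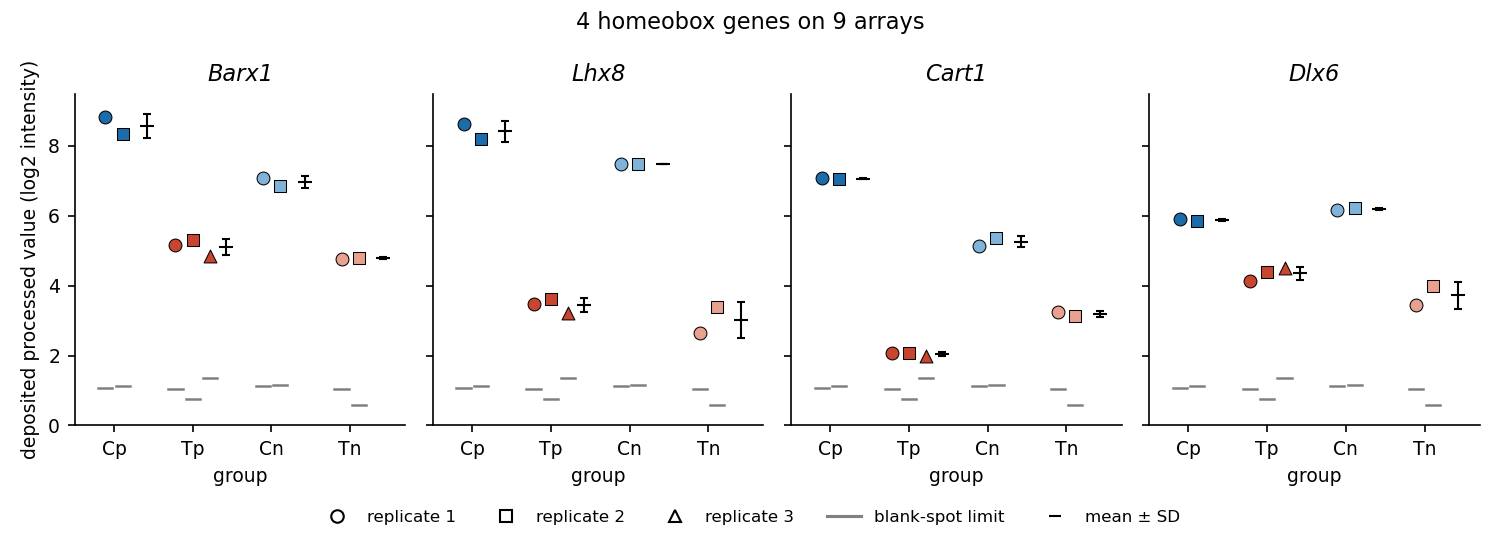
Deposited processed intensity (log2, vertical axis) of the 4 genes on each of the 9 arrays, by group, with symbols for replicates, grey bars for the blank limit of that array on the same scale and black bars for mean ± SD. The craniofacial groups Cp and Cn lie above the trunk groups Tp and Tn for every gene, and Cart1 on the Tp arrays lies nearest to the limit.

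Within EGFP+ cells, the comparison of cNCCs with tNCCs, 4 of 4 genes were higher in Cp, where 4.18% of all probes tested were called higher and 18.0% lay higher on every Cp array than on every Tp array. Since the gene table was selected on such differences, nothing is read from that count. Cart1 had the largest fold of the 21965 probes and Lhx8 the next, both over dim Tp spots, while 23 probes exceeded Barx1 and 403 exceeded Dlx6. In the offset readings Cart1 lost the first place, since 17 probes exceeded Cart1 but only 1 exceeded Lhx8 and 5 exceeded Barx1. With the ring, 16 probes exceeded Lhx8, 36 exceeded Barx1, 250 exceeded Cart1 and 2217 exceeded Dlx6. Against Tp replicate 3 alone, the array that had no part in the selection, Cp exceeded Tp by 3.71 for Barx1, 5.19 for Lhx8, 5.08 for Cart1 and 1.37 for Dlx6 on the log2 scale, with no test on a single array. The Cp arrays in these differences did take part in the selection, so the values are not free of it. Scan 1 held all 4 groups, and within it Cp exceeded Tp by 3.64, 5.17, 5.01 and 1.77 for Barx1, Lhx8, Cart1 and Dlx6, in that order.

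Within EGFP- cells, 4 of 4 genes were likewise higher in Cn than in Tn, against 0.555% of all probes called higher and 9.82% without overlap in that direction. The median log2 difference of the 4 was 2.33, beside -0.16 over all probes, a shift of the whole array that quantile normalization brought to 0.00. Both counts of 4 held when each array in turn was left out and with the scan or the replicate number as a block. Within scan 1, Cn exceeded Tn by 2.33 for Barx1, 4.83 for Lhx8, 1.89 for Cart1 and 2.71 for Dlx6.

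EGFP state separated the genes less. In the craniofacial region 2 of 4, Barx1 and Cart1, were higher in Cp than in Cn, where 1.38% of all probes were called higher. On the arrays Barx1, Lhx8 and Cart1 lay higher in Cp than in Cn without overlap, as 29.1% of all probes did, and Dlx6 lay lower, as 18.2% did. Barx1 and Cart1 kept the direction in each of the 2 scans that held Cp and Cn, at 1.73 and 1.49 for Barx1 and at 1.93 and 1.68 for Cart1. In the trunk none of the 4 was called higher in Tp than in Tn, where 2.45% of probes were (538 by limma, of 3446 probes at an unadjusted p under 0.05 in either direction), and Cart1 was called lower, where 4.35% were. Barx1 and Dlx6 lay higher in Tp than in Tn without overlap, as 8.92% of all probes did, and Cart1 lay lower, as 19.4% did. Dlx6, at an unadjusted p of 0.03, was the only 1 of the other 3 under that limit.

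The regional difference itself was then compared between EGFP+ and EGFP- cells by an interaction term. It was larger in EGFP+ cells by 2.95 on the log2 scale for Cart1 (SE 0.33, adjusted p = 0.000466), where 3.25% of probes were called in that direction. For Barx1 it was larger by 1.27 and just missed the threshold (adjusted p = 0.0772). It passed with the scan as a block (1.15, adjusted p = 0.0369), with quantile normalization, a pseudocount or a trended, robust eBayes, and in the offset readings (1.06, adjusted p = 0.00148). Lhx8 gave 0.50 (adjusted p = 0.619), or 0.58 in the offset readings (adjusted p = 0.0118), and Dlx6 gave -0.93, with an interval of -1.75 to -0.11 (adjusted p = 0.21). The 4 genes therefore ranged, in this term, on both sides of the median of 0.20 over all probes.

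**Figure D2:**
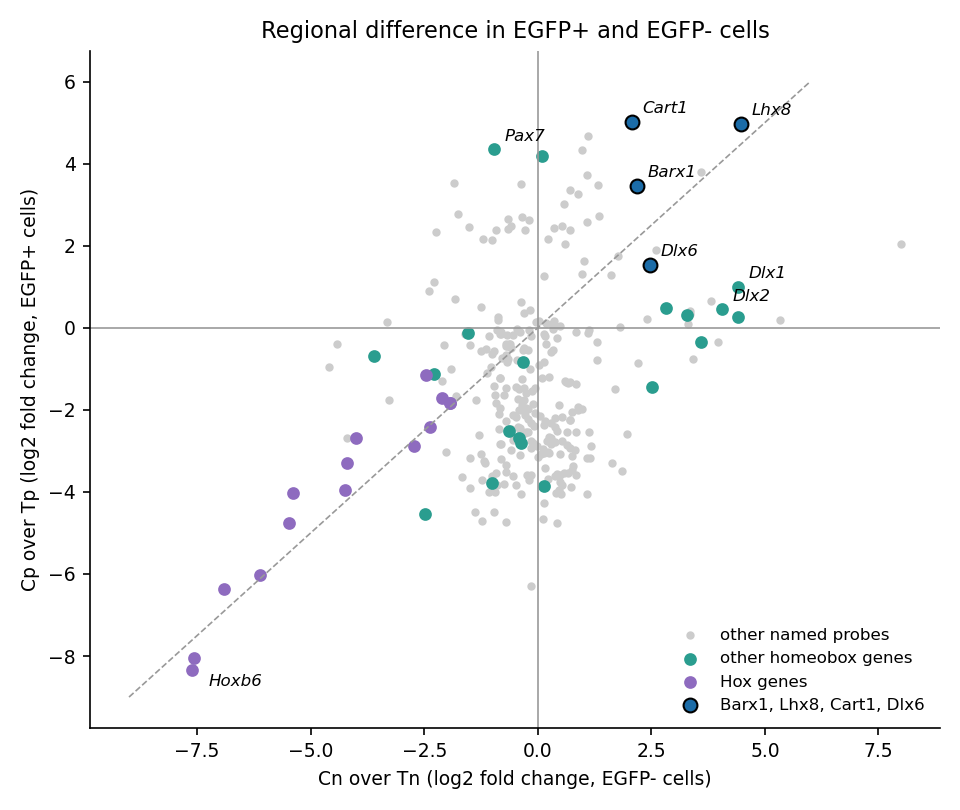
Log2 fold change of Cp over Tp (vertical axis, EGFP+ cells) against Cn over Tn (horizontal axis, EGFP- cells) for the 306 named probes, with the dashed line marking equal differences. Barx1, Lhx8, Cart1 and Dlx6 are positive on both axes, at 3.46 and 2.18, 4.98 and 4.47, 5.02 and 2.07, and 1.54 and 2.47, while all Hox genes are negative on both.

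EGFP- cells of the face also gave signal for all 4 genes. The share of the craniofacial signal found in them was taken as Cn intensity over the sum of Cn and Cp. The arrays received labelled RNA and not equal parts of the tissue, so this is a share per unit of RNA and not of the cells of the face. For Barx1 it was 23.2% and 26.3% in the pairs of replicate 1 and replicate 2. Cart1 gave 20.8% and 23.8%, and Lhx8 gave 31.0% and 37.9%. Dlx6 gave 54.4% and 56.2%, the only gene of the 4 with more signal in Cn than in Cp. Put as a fraction of the Cp level, Cn held 32.5% for Barx1, 51.8% for Lhx8, 28.7% for Cart1 and 124% for Dlx6. The shares differed by under 2 points when the scanner's spot readings minus the blank mean were used in place of the deposited intensities (24.7%, 33.9%, 22.2% and 55.2% as means of both pairs for Barx1, Lhx8, Cart1 and Dlx6). With the spot minus its ring the pairs lay further apart, at 34.7% and 28.4% for Barx1, 24.6% and 44.6% for Lhx8, 16.7% and 34.8% for Cart1, and 39.8% and 52.5% for Dlx6. Over all probes tested the median share was 48.2%.

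Shares of marker genes were taken in the same way. The lists were written from general knowledge with the gene table in view, and only genes that the table names can be counted, so they describe and do not test. Among 8 named genes of skeletal mesenchyme, the tissue that crest forms in the face, the share ran from 19.9% to 36.2% (median 27.9%), a range that holds the shares of the group means of Barx1 (24.5%), Lhx8 (34.1%) and Cart1 (22.3%) but not that of Dlx6 (55.3%). In this list 7 of 8 were higher in Cp than in Tp, where 4.18% of all probes were (median 2.41, beside 0.04 over all probes). In Cp against Cn, 6 of 8 were higher, where 1.38% were (median 1.36, beside 0.10). Unlike the 4 homeobox genes, none of the 8 was called higher in Cn than in Tn. Of the 8, 4 were called lower there, where 0.81% of all probes were (median -1.26, beside -0.16). All 8 were lower in Tp than in Tn, where 4.35% were (median -2.31, beside -0.11). With the ring, 2 of 8 passed as higher in Cp than in Tp, where 0.123% of all probes did, and 1 of 8 as higher in Cp than in Cn, where 0.0137% did. Tnc, an extracellular matrix glycoprotein, had log2 levels of 8.52 in Cp and 7.09 in Cn, and Omd, a matrix proteoglycan of bone, 6.06 in Cp and 4.11 in Cn.

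At the other end stood 12 named forebrain genes, with shares of 68.5% to 98.3% and a median of 92.0%. All 12 were higher in Cn than in Tn, where 0.555% of all probes were (median 3.7, beside -0.16 over all probes). In Cp against Cn, 11 of 12 were lower, where 4.36% of all probes were (median -3.51, beside 0.10). With the ring all 12 kept the sign in both comparisons. In Cn over Tn 6 of the 12 passed, where 0.105% of all probes were called higher. In Cp over Cn 5 passed, where 32 of 21965 probes were called lower. The summed intensity of the 12 was 502 on either Cp array, against 3678 to 3852 on the Cn arrays, and it was 329 to 400 in Tp, against 356 to 367 in Tn. None of the 12 was below the blank limit on both Cn arrays, and 11 of 12 were above it on both Cp arrays. Forebrain RNA thus moved with Cn, and since Lhx8 and Dlx6 are also forebrain genes, it is given beside their Cn levels, but its part in them was not tested. Blood and muscle genes also lay mostly in Cn rather than Cp, with median shares of 96.7% for 10 erythroid probes, 87.9% for 7 myeloid probes and 92.2% for 11 skeletal muscle probes. They were not particular to the face. None of these probes was called higher in Cn than in Tn, where 0.555% of all probes were. All of them were called lower in Tp than in Tn, where 4.35% were. For 12 genes of peripheral neurons and glia the shares ran from 27.0% to 79.3% (median 42.1%). For the 15 Hox genes they ran from 32.1% to 63.1% (median 50.6%). Both ranges hold the shares of the group means of Lhx8 and Dlx6 but not those of Barx1 and Cart1.

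**Figure D3:**
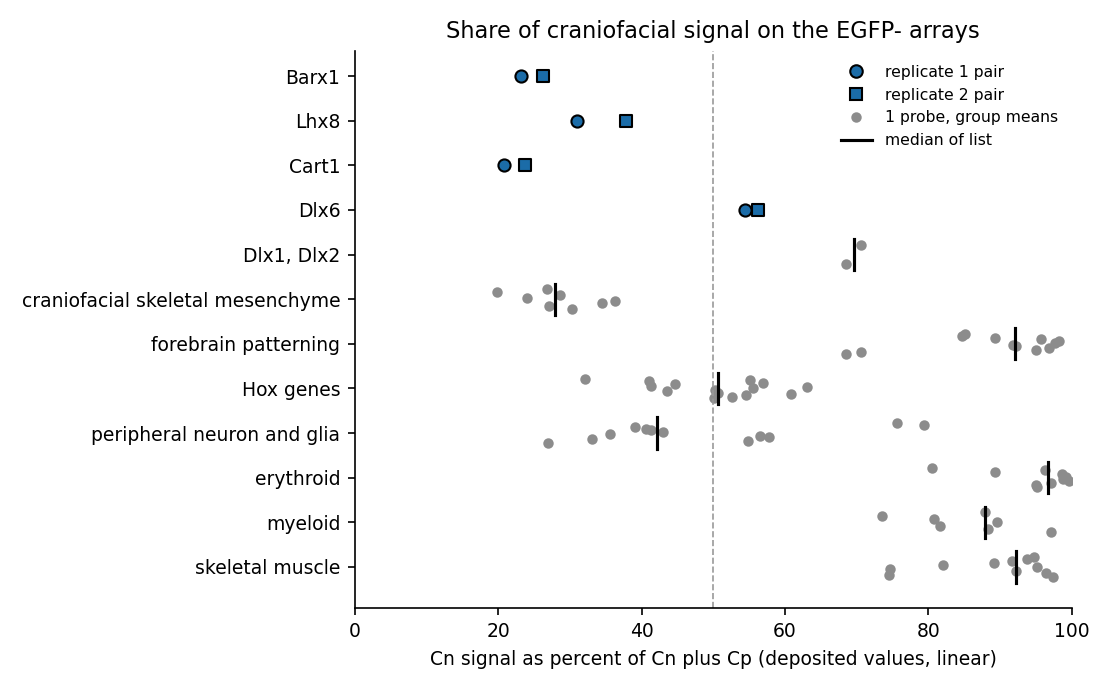
Cn intensity as a percent of Cn plus Cp (horizontal axis, linear deposited values) for the 4 genes, 1 symbol per replicate pair, and below them for the named genes of each list, 1 grey point per probe with a bar at the median and a dashed line at equal signal. Barx1, Cart1 and Lhx8 lie between 20.8% and 37.9%, near the skeletal mesenchyme genes, and Lhx8 also lies within the range of the neuron and glia genes. Dlx6 lies at 54.4% and 56.2%, below Dlx1 and Dlx2.

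Dlx1 and Dlx2, the other distal-less genes that the table names, are expressed with Dlx6 both in the arches and in forebrain interneurons. Dlx1 had mean log2 levels of 7.84 in Cp, 6.84 in Tp, 8.90 in Cn and 4.49 in Tn, and Dlx2 had 7.25 in Cp, 6.79 in Tp, 8.52 in Cn and 4.46 in Tn. In EGFP- cells they shared the regional difference of Dlx6, with Cn over Tn at 4.42 for Dlx1 (adjusted p = 1.49e-05) and 4.06 for Dlx2 (adjusted p = 2.03e-05). In EGFP+ cells neither passed, at 1.0 (adjusted p = 0.0514) and 0.46 (adjusted p = 0.407), whereas Dlx6 did. Dlx1 and Dlx2 were also higher in Tp than in Tn, by 2.35 (adjusted p = 0.000366) and 2.33 (adjusted p = 0.000271), where Dlx6 gave 0.62 and did not pass. With the ring, Dlx1 still passed in Cn over Tn (2.60, adjusted p = 0.0214) but Dlx2 did not (1.11, adjusted p = 0.434), neither passed in Tp over Tn (0.93 and 0.68), and Dlx2 in Cp over Tp turned to -0.12.

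Of the 26 genes listed for arch and craniofacial patterning the table named 4, Dlx1, Dlx2 and Bmp4 among them. Dlx1 and Dlx2 were also counted in the forebrain list, and they are the 2 genes called in Cn over Tn below. In this list 2 of 4 passed as higher in Cp than in Tp, where 4.18% of all probes did (median 1.71, beside 0.04), and 2 of 4 as higher in Cn than in Tn, where 0.555% did (median 2.08, beside -0.16). Between Cp and Cn, 1 was higher, where 1.38% of all probes were, and 1 lower, where 4.36% were (median -0.88, beside 0.10). With the ring, none passed between Cp and Tp or between Cp and Cn, and 1 passed as higher in Cn than in Tn, where 0.105% of all probes did. Bmp4, a growth factor of the arches, was higher in Cp than in Tp by 2.42 (adjusted p = 6.3e-05) and higher in Cp than in Cn by 1.33 (adjusted p = 0.0104). Of all 38 named homeobox genes, 11 had a higher mean in Cp than in Tp. Of these 6 passed, where 4.18% of all probes did, among them the 4 genes described here and Pax7. Only 4 of the 38 had their highest mean in Cp, and they were Barx1, Lhx8, Cart1 and Pax7, a marker of early crest. The 15 Hox genes went the other way, all 15 lower in Cp than in Tp (median -3.30, where 5.08% of all probes were called lower) and all 15 lower in Cn than in Tn (median -4.21, where 0.81% were), in the deposited values, under quantile normalization and in the offset readings. With the ring, all 15 kept the sign, and 3 and 2 of them passed in these comparisons, where limma called 62 and 20 of 21965 probes lower.

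The patterns of the 4 genes over the 9 arrays were alike, with Pearson correlations of log2 values from 0.80 (Cart1 and Dlx6) to 0.97 (Barx1 and Lhx8). Arrays of 1 group are not independent conditions, so these numbers chiefly restate the group means. Among the other named probes, Barx1 was most like Acp1 (0.98), Nts (0.97) and Rerg (0.95), and Lhx8 most like Nts (0.99), Tcfap2c (0.96) and Acp1 (0.94). Cart1 had other neighbours, which were Rspo2 (0.99), Lgr5 (0.98) and Crym (0.98). Rspo2, a secreted enhancer of Wnt signalling, had mean log2 levels of 7.33 in Cp, 3.85 in Tp, 5.96 in Cn and 4.63 in Tn, the same order of groups as Cart1. Dlx6 was most like Tcfap2c (0.98), Nts (0.95) and Dlx1 (0.91). Tcfap2c, a transcription factor of the AP-2 family, had 5.96 in Cp, 4.08 in Tp, 6.43 in Cn and 3.83 in Tn, and like Dlx6 was slightly brighter in Cn than in Cp.

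The size of every fold depended on how the values were made from the spot readings. In the offset readings Cp exceeded Tp by 2.50 for Barx1, 2.96 for Lhx8, 2.01 for Cart1 and 0.74 for Dlx6 on the log2 scale, and all 4 passed, where 4.86% of probes were called higher. Quantile normalization of the deposited values alone gave 3.43, 4.91, 4.96 and 1.51 in the same order of genes. With the ring in place of the blank mean, and the other steps as in the offset readings, the differences were 1.74, 2.07, 1.06 and 0.30, and Barx1 (adjusted p = 0.0166) and Lhx8 (adjusted p = 0.0256) passed, where 0.123% of probes were called higher, while Cart1 (0.114) and Dlx6 (0.824) did not. The ring reading itself followed the spot, with a correlation of their logs of 0.908 to 0.985 and a median ring at 0.602 to 0.820 of the spot. Under the ring none of the 4 genes passed between Cn and Tn, at 0.91, 1.5, 0.34 and 0.30, where limma called 0.105% of probes higher, or between Cp and Cn, where it called 0.0137%. At an unadjusted p under 0.05, 2 of the 4 and 3 of the 4 passed in these comparisons. Signs in the regional comparisons held throughout.

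**Figure D4:**
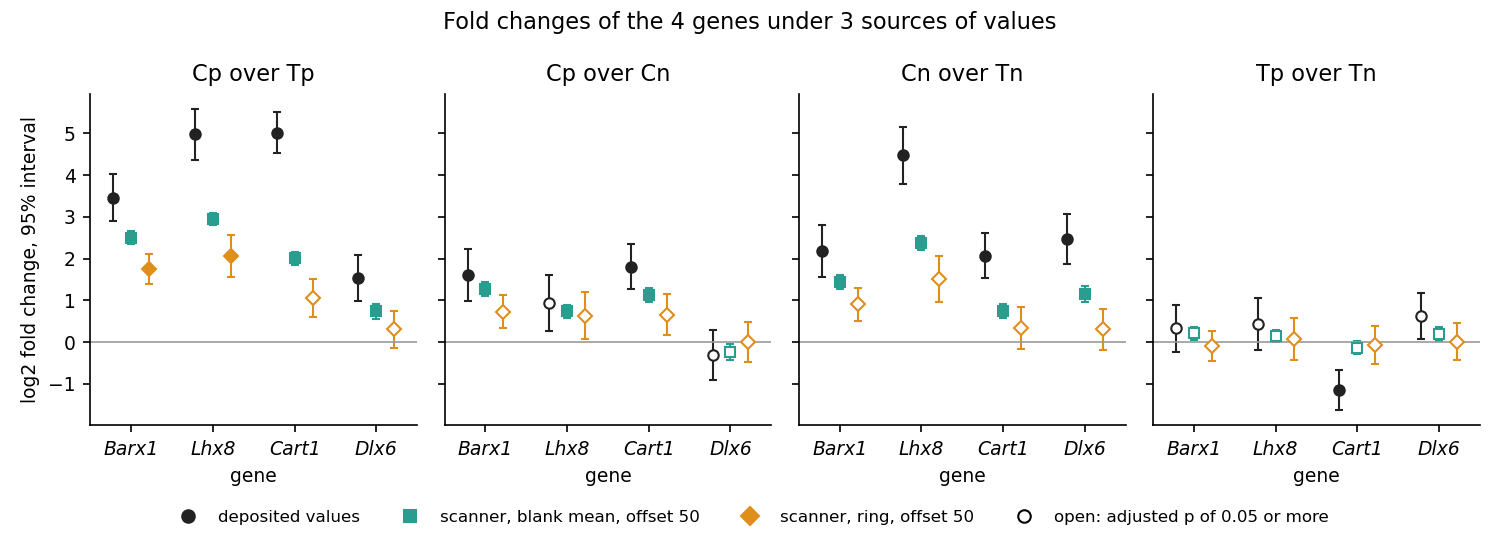
Log2 fold changes (vertical axis) of the 4 genes in 4 comparisons, from the deposited values, the scanner's readings after normexp with an offset of 50 and quantile normalization against the blank mean, and the same against the ring, with 95% intervals and open symbols where the adjusted p was 0.05 or more. In Cp over Tp the deposited values run from 1.54 to 5.02 and the ring values from 0.30 to 2.07.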

How the data were processed

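The authors deposited 2 kinds of values for the 9 arrays. The scanner output gives an intensity per spot and a second intensity for its surrounding ring, and a further table holds processed intensity values made by them. The formula of the processed values is not given in the sources used here. Empty processed cells were set to the lowest value of the array, and log2 of the authors' deposited intensity was tested over all 9 arrays together with limma (3.58.1, under R 4.3.3), leaving 5 residual degrees of freedom. Tests were two-sided, with Benjamini-Hochberg adjustment over all probes tested and a threshold of 0.05. A probe entered the fit if it exceeded the blank limit on 2 or more arrays, as 21965 of 23473 did. The deposited values were used because the ring followed the spot, and this was decided with earlier results of these data known. Scanner readings with normexp (offset 50) and quantile normalization, against the blank mean or the ring, were alternatives. The others were quantile normalization, a pseudocount of 1, no filter, probes with a value on all arrays, a trended and robust eBayes, blocks for scan and replicate number, each array left out and a plain analysis of variance. The values against Tp replicate 3 alone were added after the data had been seen. The fit was tested on simulated data. The 4 genes, the marker lists and the rule for likeness (the 3 named probes with the highest Pearson correlation to each gene) were also chosen with earlier results of these data known. Gene names came from the gene table, whose own values were not used, and some of its genes are counted in lists but not reported here by name. Only 1 spot per array carried each gene, and signal over background limits the precision.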

Additional observations from a re-analysis of the deposited data

Results flagged for a closer look

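The regional difference of Cart1 was larger in EGFP+ than in EGFP- cells by 2.95 on the log2 scale (SE 0.33, adjusted p = 0.000466 for the interaction in limma). Cp exceeded Tp by 5.02, and Cn exceeded Tn by 2.07. The term stayed positive and past the threshold without any single array (2.84 to 3.06) and in the offset readings, those of the scanner after normexp with an offset of 50 against the blank mean and quantile normalization (1.27, adjusted p = 0.000899), and was 0.72 (adjusted p = 0.501) with the ring. The Tp spots of Cart1 read 1.06 to 1.2 times the blank limit, and the part of this in the result was not tested.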

How the results depend on the processing

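Of 388 values of the 4 genes under alternatives, 363 kept direction and side of the threshold or, where untested, moved by less than 1 SE of the fit to the deposited values. Under the ring only 8 values kept both, while 10 lost the threshold and 2 changed sign. With the ring, counts of probes called were 89 for Cp over Tp (2034 in the deposited values), 35 for Cp over Cn (1261), 43 for Cn over Tn (300), 118 for Tp over Tn (1494) and 43 for the interaction (1414), Dlx6 in Cp over Cn turned to 0.0048 (adjusted p = 1) and Barx1 in Tp over Tn to -0.10 (adjusted p = 0.894), and the Cn share was 31.6% for Barx1, 25.7% for Cart1 and 46.1% for Dlx6, with the pairs at 16.7% and 34.8% for Cart1 and at 24.6% and 44.6% for Lhx8. The cause was not tested. The scan as a block gave 2345 calls for Cp over Cn and 2293 for the interaction, where Barx1 passed (1.15, adjusted p = 0.0369), as it did with quantile normalization (1.07, adjusted p = 0.0345), a pseudocount (adjusted p = 0.0455) and a trended, robust eBayes (adjusted p = 0.0396). Barx1 did not pass in the interaction with the ring, the replicate number as a block, no filter or only probes with a value on all arrays. Leaving out single arrays gave 1048 to 2048, 622 to 1345, 140 to 328, 941 to 1444 and 799 to 1434 calls for the 5 comparisons in the order above, lowest without Cp replicate 1, Cp replicate 1, Cn replicate 1, Tn replicate 2 and Cp replicate 1. Cp replicate 2 (1084, 648 and 840 for Cp over Tp, Cp over Cn and the interaction), Cn replicate 1 (647 and 887 for Cp over Cn and the interaction), Cn replicate 2 (818 for Cp over Cn) and Tn replicate 2 (192 for Cn over Tn) also lowered counts. With 1 of the 2 pairs left out, the Cn share was simply that of the other pair, so this was no further check. The pairs spanned 23.2% to 26.3% for Barx1, 31.0% to 37.9% for Lhx8, 20.8% to 23.8% for Cart1 and 54.4% to 56.2% for Dlx6. A plain analysis of variance over the 4 groups called 1221 probes and limma's F test 2693, with all 4 genes in both. The split of higher and lower calls moved with the scaling: in the offset readings it was 496 and 766 for Cp over Cn (304 and 957 in the deposited values), 175 and 165 for Cn over Tn (122 and 178) and 672 and 676 for Tp over Tn (538 and 956), and with quantile normalization 192 and 169 for Cn over Tn and 744 and 856 for Tp over Tn. With the replicate number as a block the counts were 2293, 1659, 421, 1473 and 1662, and no call of the 4 genes changed. The labels do not say that a number marks a shared litter, and deviations of same-numbered arrays correlated between groups at 0.08 to 0.42.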
